A study of Mus musculus with 9 samples.

Results

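Integrins and cadherins are the cell surface receptors by which cells hold on to matrix and to each other, and their transcripts were compared in adipose stromal cells of the mammary gland at 3 stages of its development. The members were all genes on the array whose symbol names an integrin alpha or beta subunit or a numbered cadherin, and whose probe set carried exactly 1 symbol. This gave 50 of 19930 genes, made up of 27 integrin subunits and 23 cadherins and measured by 53 of 21762 probe sets. Cdh18, Cdh24 and Itgad each had 2 probe sets, whose values were averaged. The rule that picks the members uses their symbols and no measured value.

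The 9 arrays (Affymetrix Mouse Gene 1.0 ST) held 3 preparations from each stage, all from female Balb/c mice with no engineered allele named. ASC-Ns came from nulliparous mice of 8 weeks that had not been housed with males, ASC-Ls from mice at day 5 of lactation and ASC-Is from mice at day 3 of involution. Stroma was freed from the gland with collagenase and hyaluronidase. The paper describes low passage cultures of these cells, whereas the labels name the stroma itself, so it cannot be settled here how long the cells had been in culture. No sort was named, and other cells of the gland can have remained among the stromal cells.

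An integrin is a heterodimer of 1 alpha and 1 beta subunit that binds collagen, laminin, fibronectin or a counter-receptor outside the cell and, through talin and kindlin, the actin cytoskeleton inside it. Classical cadherins bind each other between neighboring cells in the presence of calcium and are held to actin by catenins. In the mammary gland, several members are read as signs of a cell type: E-cadherin (Cdh1) of luminal epithelium, P-cadherin (Cdh3) of the basal, myoepithelial layer, VE-cadherin (Cdh5) of endothelium, cadherin-11 (Cdh11) of fibroblasts and the integrin chains Itgam and Itgb2 of myeloid cells.

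Array medians lay between 5.93 and 6.0 on the log2 scale, and arrays of 1 stage correlated at 0.960 to 0.991 over all genes. A set of 11 markers of mesenchymal stroma (Pdgfra, the fibrillar collagens, Dcn and others) had a mean log2 signal of 10.27 to 10.97 on the 9 arrays, and 8 adipocyte markers one of 6.01 to 6.58. ASC-L 2 and ASC-I 2 stood apart: 13 luminal epithelial markers averaged 8.71 and 7.49 there, against 5.67 to 6.81 on the other 7 arrays. The mean of 11 basal epithelial markers was 9.09 and 7.77 on these arrays, against 6.34 to 6.95 on the other 7. Keratin 8 (Krt8) reached 12.31 on ASC-L 2 and 10.52 on ASC-I 2, against 6.75 to 8.97 elsewhere. ASC-N 3 had the lowest mean of 18 macrophage markers, 6.04, against 8.11 and 8.02 on the other ASC-N arrays. Results are therefore given with and without these arrays.

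Across the 3 stages, 0 of the 50 members passed a moderated F-test in limma at an unadjusted p under 0.05, where 1.73% of all genes did. A gene was called different between stages at an unadjusted p under 0.05 and a change of at least 1.5-fold, the limits of the study. Between ASC-Ls and ASC-Ns, 0 members were called, against 0.627% of all genes. Likewise 0 members were called between ASC-Is and ASC-Ns, against 0.251%. Between ASC-Ls and ASC-Is, 1 member was called, Itgam, which was lower in ASC-Ls. There, 0.482% of all genes were called and 0.406% were called lower. At an unadjusted p under 0.05 alone, the members were 0, 0 and 2 (Itgam and Cdh17) in these comparisons, against 3.64%, 1.56% and 1.8% of all genes. After adjustment for all 19930 genes, 0 genes of the array passed in any comparison, and the smallest adjusted p in limma was 0.998. The animals of each array are not named, and every p-value here measures only how far these preparations differ from each other, which may be technical in part.

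**Figure D1:**
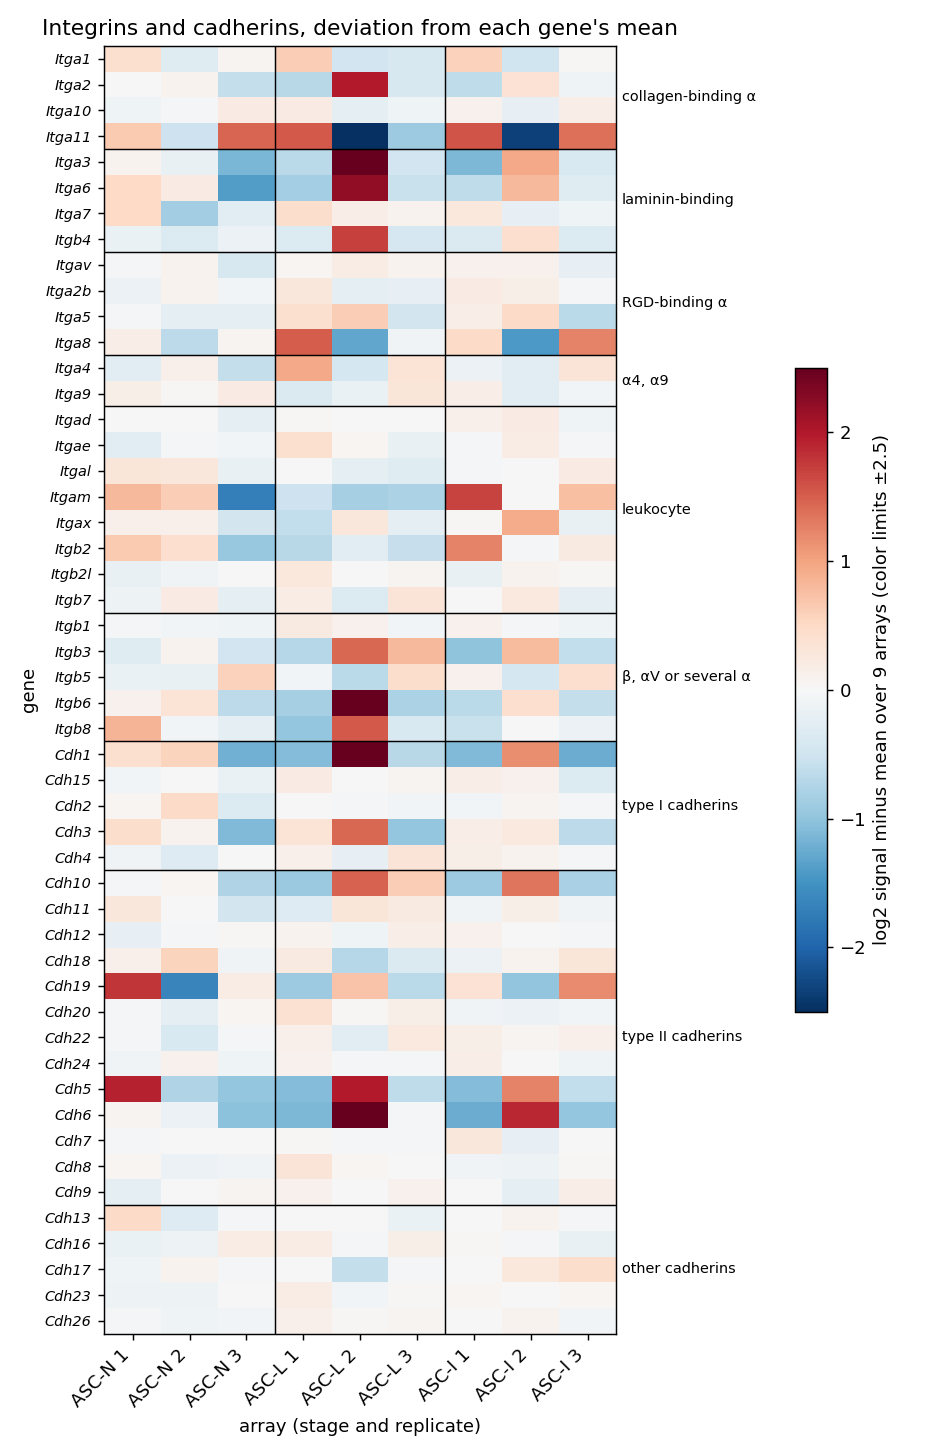
Log2 signal of the 50 members (rows, grouped by role) on the 9 arrays (columns, grouped by stage), shown as the deviation from each gene's mean over all arrays; colors are limited to 2.5 in either direction. The strong colors follow single arrays rather than stages: ASC-L 2 was the highest of the 9 arrays in 15 of 50 members.

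The members varied mostly between arrays of the same stage. The range over the 9 arrays had a median of 0.92 log2 units in the members and 0.58 in all genes, and it was over 1 log2 unit in 25 of 50 members (50%) against 17.5% of all genes. Integrins ranged wider (median 1.37, 17 of 27 over 1 log2 unit) than cadherins (median 0.64, 8 of 23). ASC-L 2 was the highest of the 9 arrays in 15 of 50 members (30%), against 16.8% of all genes, and ASC-N 3 was the lowest in 12 of 50 (24%), against 10.4%. The stages accounted for a median of 16.3% of a member's variance between arrays, and of 15.9% for all genes. The log2 change was above 0 in 33 of 50 members for ASC-Ls against ASC-Ns, against 51.7% of all genes. The corresponding counts were 30 of 50 for ASC-Ls against ASC-Is (52% of all genes) and 33 of 50 for ASC-Is against ASC-Ns (50.9% of all genes). These counts are a description and carry no test.

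The leukocyte integrins held the 1 call among the members. Itgam encodes the alpha chain of Mac-1, a receptor of macrophages and neutrophils for complement and fibrinogen. Its log2 signal was 8.17, 7.97 and 5.65 in the ASC-Ns, 6.84, 6.54 and 6.56 in the ASC-Ls and 9.06, 7.36 and 8.11 in the ASC-Is. All ASC-L values lay below all ASC-I values, while the ASC-N values spanned those of the ASC-Ls. Itgam fell in ASC-Ls against ASC-Is, with a log2 change of -1.53 (SE 0.64, 95% interval -2.99 to -0.07, unadjusted p = 0.042 in limma), a 2.88-fold difference. The change was -0.62 (-2.08 to 0.84) for ASC-Ls against ASC-Ns and 0.91 (-0.55 to 2.37) for ASC-Is against ASC-Ns.

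Itgb2 encodes the beta chain that Mac-1 shares with the other leukocyte integrins. Its log2 signal was 7.89, 7.64 and 6.27 in the ASC-Ns, 6.53, 6.93 and 6.65 in the ASC-Ls and 8.46, 7.18 and 7.45 in the ASC-Is. As for Itgam, ASC-L and ASC-I values did not overlap and ASC-N 3 was the lowest array. Its change in ASC-Ls against ASC-Is, -0.99 (SE 0.44, 95% interval -2.0 to 0.01, unadjusted p = 0.0519 in limma), stayed just outside the limit.

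The call of Itgam, and whether Itgb2 passed the limits, depended on single arrays and on the fit. When replicate number entered limma as a block over all 9 arrays, Itgam (unadjusted p = 0.0198) and Itgb2 (unadjusted p = 0.0277) were both called. The block was tried since same-numbered ASC-L and ASC-I arrays deviated together, although not every same-numbered pair with ASC-Ns did. Itgam was not called with an intensity trend and robust prior in limma (unadjusted p = 0.0529), nor after ASC-L 1, ASC-L 2, ASC-L 3, ASC-I 1 or ASC-I 3 was left out, and its change was -1.09 without ASC-I 1 and -1.62 to -1.47 in the other 4 of these fits. Without ASC-N 3, changes in ASC-Ls against ASC-Ns passed the limits for Itgam (-1.43, unadjusted p = 0.00895) and Itgb2 (-1.06, unadjusted p = 0.0157). Without both ASC-L 2 and ASC-I 2, the change of Itgam in ASC-Ls against ASC-Is was -1.88 and that of Itgb2 was -1.36, and both were called.

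The macrophage markers, none of which is a member, moved with these genes. Their mean log2 signal was 8.11, 8.02 and 6.04 in the ASC-Ns, 6.71, 6.59 and 6.38 in the ASC-Ls and 8.76, 7.17 and 7.66 in the ASC-Is. Of the 18 markers, 17 had a lower mean in the ASC-Ls than the ASC-Is and 9 of these fell past both limits (median change -1.34), among them Adgre1, which encodes a macrophage surface receptor, and Ptprc, which encodes the pan-leukocyte antigen CD45. The count of markers that fell was 16 with the replicate block and 8 without ASC-L 2 and ASC-I 2. It was 1 without ASC-I 1, 4 without ASC-L 1, 4 without ASC-L 3, 5 without ASC-I 3 and 16 without ASC-N 3. In bulk RNA, fewer cells of a type and less RNA per cell cannot be told apart, and the part of the macrophage markers in the change of Itgam was not tested. Fermt3 (kindlin-3), which activates integrins in blood cells, also fell in ASC-Ls against ASC-Is, by 0.64 (unadjusted p = 0.0208 in limma), though not without ASC-L 2 (-0.57, unadjusted p = 0.0609) or ASC-I 1 (-0.44, unadjusted p = 0.0816). It was the 1 called gene of 30 measured integrin adaptors in this comparison, and 0 of the 30 were called in the other comparisons. In ASC-Ls against ASC-Ns, Fermt3 changed by -0.54 (unadjusted p = 0.0419 in limma), which is under 1.5-fold. That change was -0.76 and called without ASC-N 3, and -0.38 and not called without ASC-N 1.

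**Figure D2:**
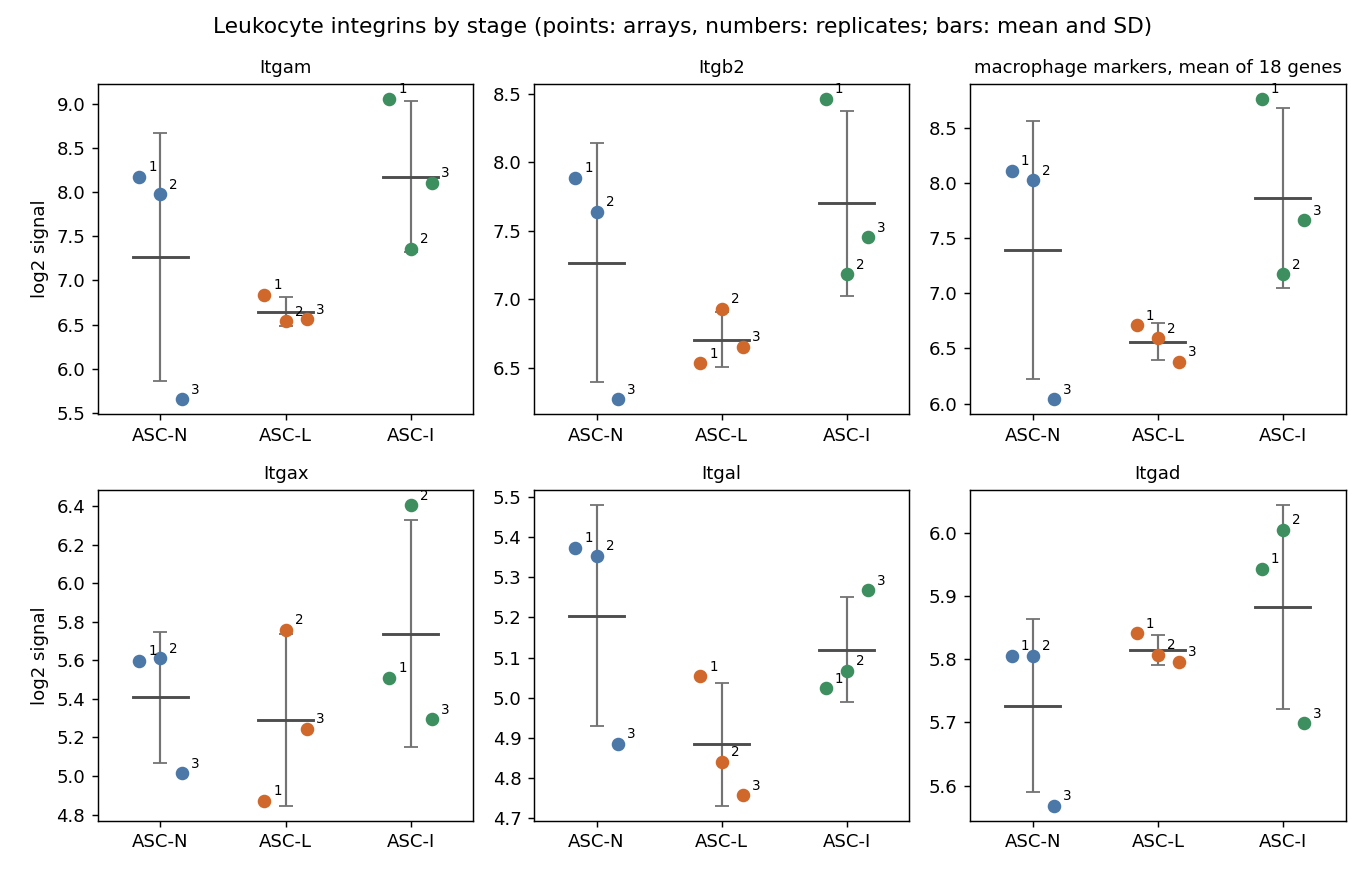
Log2 signal of 5 leukocyte integrins and the mean of 18 macrophage markers by stage; points are arrays with their replicate number, and bars give the mean and SD of 3 arrays. Itgam and Itgb2 follow the macrophage markers on the single arrays, with ASC-I 1 highest and ASC-N 3 lowest; each panel has its own axis.

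The other leukocyte integrins did not show the same array pattern. Itgax (CD11c, of dendritic cells and some macrophages) lay between 4.87 and 6.41, with ASC-I 2 highest and ASC-L 1 lowest. Itgal, the alpha chain of LFA-1, lay between 4.76 and 5.37, and its lowest value was on ASC-L 3. Itgad, Itgae, Itgb7 and the Itgb2-like gene Itgb2l ranged over at most 0.67 log2 units each. Of the 8 leukocyte integrins, 4 had a lower mean in the ASC-Ls than the ASC-Ns and 5 a lower mean than in the ASC-Is. The markers of T cells, B cells and neutrophils had 0 calls in any comparison.

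Itgam, Itgax and Itgad stand next to each other in the RefSeq gene order, and the promoters of Itgam and Itgax are given as a description. Shown are 250 bases before the start (GRCm38.p6, RefSeq, 5′ to 3′), Itgam at chr7:128062390-128062639, plus strand, and Itgax at chr7:128129300-128129549, plus strand. Capitals mark GAGGAA on either strand (TTCCTC where it is on the other strand), a core of sites of the myeloid factor PU.1.
Itgam: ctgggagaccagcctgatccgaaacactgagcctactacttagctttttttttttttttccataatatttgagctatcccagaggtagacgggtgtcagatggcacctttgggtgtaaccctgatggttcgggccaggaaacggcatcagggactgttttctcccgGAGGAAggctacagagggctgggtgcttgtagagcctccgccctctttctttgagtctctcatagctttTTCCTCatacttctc
Itgax: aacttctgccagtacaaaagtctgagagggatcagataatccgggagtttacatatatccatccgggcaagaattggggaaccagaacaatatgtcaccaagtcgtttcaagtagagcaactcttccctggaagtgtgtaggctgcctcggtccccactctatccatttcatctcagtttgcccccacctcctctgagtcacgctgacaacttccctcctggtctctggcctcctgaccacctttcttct
The Itgam window held the motif at -84 and, on the other strand, at -15, counted from the start, whereas the Itgax window held none. GAGGAA occurred in 15 of the 36 member promoters in the table (41.7%, from 32 of the 50 members), against 23.3% of all 32851 promoters. A match of 6 letters is a description and not a binding site, and variants of the motif were not searched. These promoters were not assayed, and their part in the array patterns was not tested.

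The laminin-binding integrins were highest on the arrays of high epithelial marker signal. Itga3 and Itga6, the alpha chains that pair with Itgb1 as laminin receptors of epithelium, and Itgb4, the hemidesmosome chain that pairs with Itga6, had their highest value on ASC-L 2 and the next on ASC-I 2. The log2 signal of Itga3 was 6.61, 6.33 and 5.39 in the ASC-Ns, 5.85, 9.48 and 6.04 in the ASC-Ls and 5.41, 7.48 and 6.14 in the ASC-Is. The mean of the ASC-Ls thus rested on 1 array, and the change from ASC-Ns was 1.02 with an interval of -1.08 to 3.12. Without ASC-L 2 and ASC-I 2 it was -0.16. For Itga6 the values were 7.32, 7.02 and 5.42 in the ASC-Ns, 5.97, 9.04 and 6.25 in the ASC-Ls and 6.18, 7.62 and 6.52 in the ASC-Is. Its change in ASC-Ls against ASC-Ns was 0.50 (-1.37 to 2.37) and became -0.47 without ASC-L 2 and ASC-I 2. Itgb4 was 8.32 on ASC-L 2 and 7.03 on ASC-I 2, and 6.19 to 6.45 on the other 7 arrays. Itga7, the laminin receptor chain of muscle, did not follow this order and was highest on ASC-N 1 (7.13).

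E-cadherin showed the same order of arrays. The log2 signal of Cdh1 was 6.96, 7.13 and 5.36 in the ASC-Ns, 5.48, 9.75 and 5.86 in the ASC-Ls and 5.46, 7.72 and 5.32 in the ASC-Is. Its range of 4.43 log2 units was the widest of the 50 members, while its change in ASC-Ls against ASC-Ns was 0.55 with an interval of -1.99 to 3.09. Without ASC-L 2 and ASC-I 2 that change was -0.81. Cdh3 was also highest on ASC-L 2 (7.86), but its value on ASC-I 2 (6.65) was close to those on ASC-I 1 (6.58) and ASC-L 1 (6.76). Its change in ASC-Ls against ASC-Ns was 0.46 (-0.90 to 1.83). The epithelial beta chain Itgb6, which pairs with Itgav and activates latent TGF-beta, was 7.80 on ASC-L 2 and 5.57 on ASC-I 2, against 4.32 to 5.48 elsewhere. In ASC-Ls against ASC-Ns the change of Itgb6 was 0.42 (-1.49 to 2.32). Without ASC-L 2 and ASC-I 2 it was -0.74 and called (unadjusted p = 0.027 in limma).

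ASC-L 2 and ASC-I 2 were the highest pair of arrays in 10 of the 50 members (20%), against 8.37% of all genes. These were Cdh1, Cdh6, Cdh10, Itga2, Itga3, Itga5, Itga6, Itgax, Itgb4 and Itgb6. Itga2 is the alpha chain of the collagen receptor of epithelium and platelets, and Cdh6 (K-cadherin) and Cdh10 are type II cadherins. Cdh6 reached 8.98 and 8.30 on ASC-L 2 and ASC-I 2, against 5.18 to 6.48 on the other arrays. Cdh10 was 8.02 and 7.88 there and also high on ASC-L 3 (7.16), against 5.62 to 6.59 elsewhere. The members that were not fixed by the naming rule, such as Itga3, Itgb6, Cdh6 and Cdh10, are named here after their values were seen. The epithelial marker values stand beside these members, and their part in the order of the arrays was not tested.

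**Figure D3:**
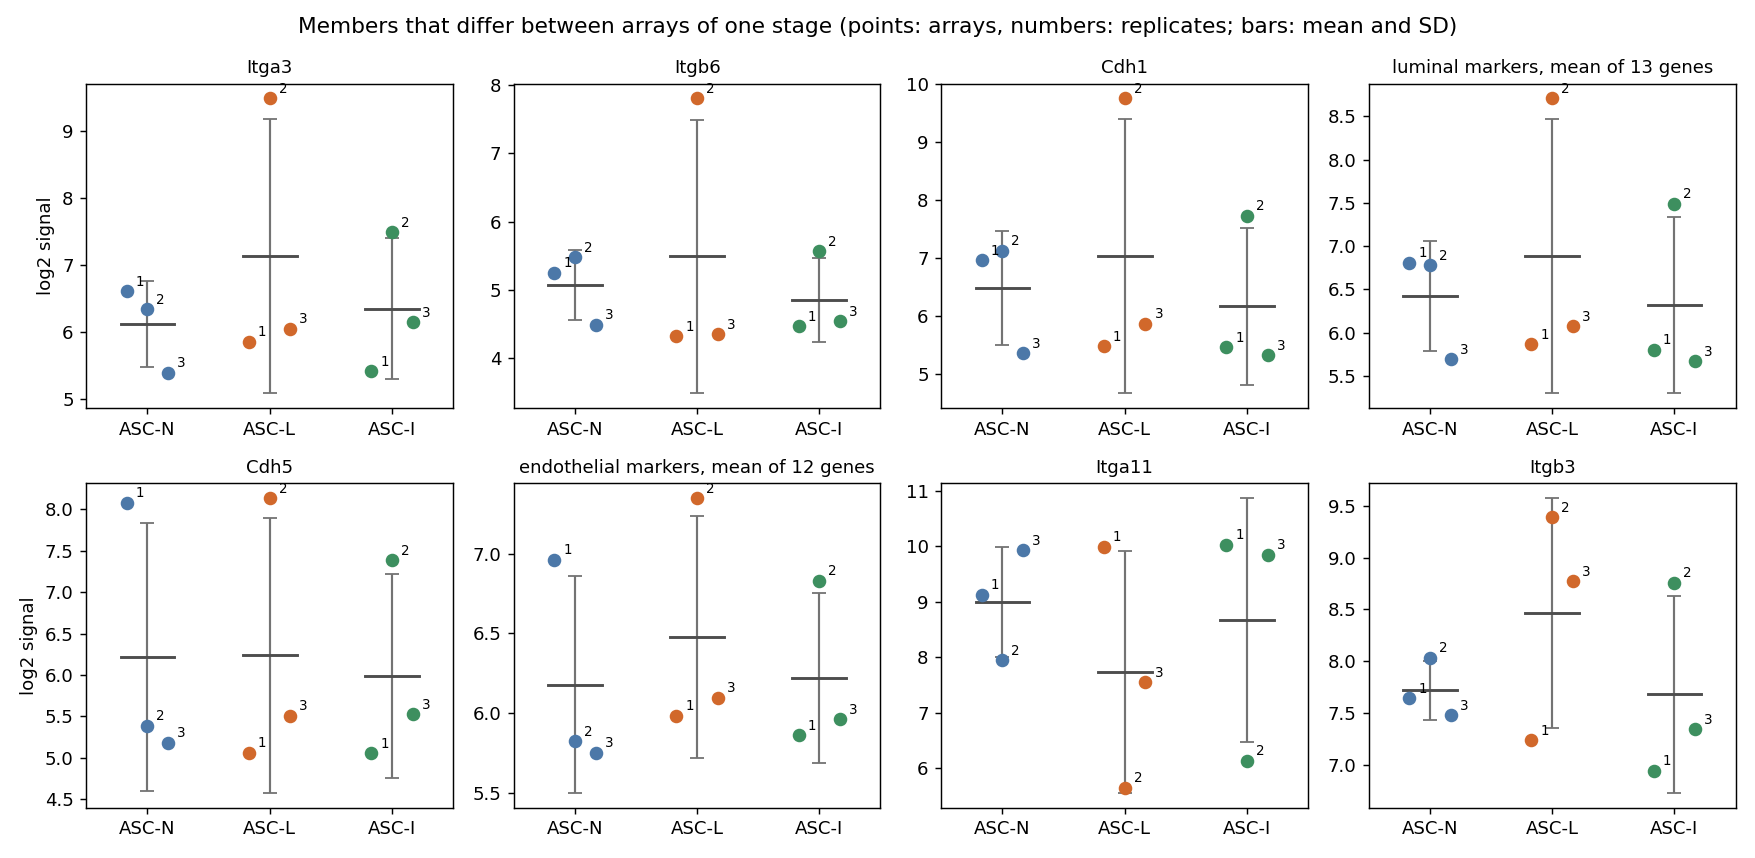
Log2 signal of 6 members and 2 marker means (luminal epithelium, 13 genes, and endothelium, 12 genes) by stage; points are arrays with their replicate number, and bars give the mean and SD of 3 arrays. Replicate 2 of the ASC-Ls and ASC-Is is highest for Itga3, Itgb6 and Cdh1 and lowest for Itga11, whereas Cdh5 is also high on ASC-N 1; each panel has its own axis.

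VE-cadherin differed from the epithelial members in 1 array. The log2 signal of Cdh5 was 8.08, 5.39 and 5.19 in the ASC-Ns, 5.06, 8.13 and 5.51 in the ASC-Ls and 5.06, 7.38 and 5.53 in the ASC-Is. It was high on 1 array of each stage, and its stage means differed by 0.02 between ASC-Ls and ASC-Ns (95% interval -2.29 to 2.32). The mean of 12 endothelial markers was likewise highest on ASC-L 2 (7.35), ASC-N 1 (6.96) and ASC-I 2 (6.83), against 5.75 to 6.10 on the other 6 arrays. Pecam1 (CD31) was 7.99 on ASC-N 1, 8.03 on ASC-L 2 and 7.22 on ASC-I 2, and at most 5.60 elsewhere. The part of these markers in the values of Cdh5 was not tested.

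Itga11 and Itga8 showed the opposite order of arrays, and were chosen after their values were seen. Itga11, a collagen receptor chain of fibroblasts, had log2 signals of 9.13, 7.95 and 9.93 in the ASC-Ns, 10.00, 5.65 and 7.55 in the ASC-Ls and 10.03, 6.13 and 9.85 in the ASC-Is. Values under 7 were found on ASC-L 2 and ASC-I 2 alone, and its range of 4.39 log2 units came next to that of Cdh1. The change in ASC-Ls against ASC-Ns was -1.27 (-4.13 to 1.59). Itga8, which pairs with Itgb1 and binds nephronectin, was 5.61 on ASC-L 2 and 5.47 on ASC-I 2, against 6.25 to 8.42 on the other arrays. ASC-L 2 and ASC-I 2 were the lowest pair in 6 of 50 members (12%), against 10.3% of all genes, and these were Cdh7, Itga1, Itga8, Itga10, Itga11 and Itgb5. The share is near that of all genes, and the classes were mixed, since collagen-binding Itga2 and RGD-binding Itga5 had the same arrays as their highest pair. Itga1, the other main collagen receptor chain, varied less (8.66 to 9.78), and its change in ASC-Ls against ASC-Ns was -0.14 (-0.95 to 0.66). The mesenchymal marker mean was 10.27 on ASC-L 2, the lowest of the 9 arrays, and 10.53 on ASC-I 2, against 10.27 to 10.97 elsewhere. The part of these markers in the values of Itga11 and Itga8 was not tested.

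The promoters of Itga3 and Itga11, which had opposite array orders, are shown for the E-box CAGGTG, a sequence bound by the Snail and Zeb repressors of epithelial genes. The windows are again 250 bases before the start in GRCm38.p6 from RefSeq, 5′ to 3′, for Itga3 at chr11:95076715-95076964, minus strand (the farther upstream of 2 starts), and for Itga11 at chr9:62677605-62677854, plus strand. Capitals mark CAGGTG and, as TTCCTC, the motif GAGGAA on the other strand.
Itga3: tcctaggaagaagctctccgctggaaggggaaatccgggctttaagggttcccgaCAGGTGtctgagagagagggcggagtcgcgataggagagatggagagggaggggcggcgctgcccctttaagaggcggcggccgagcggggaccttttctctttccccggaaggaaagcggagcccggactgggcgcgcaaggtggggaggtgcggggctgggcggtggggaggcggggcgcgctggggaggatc
Itga11: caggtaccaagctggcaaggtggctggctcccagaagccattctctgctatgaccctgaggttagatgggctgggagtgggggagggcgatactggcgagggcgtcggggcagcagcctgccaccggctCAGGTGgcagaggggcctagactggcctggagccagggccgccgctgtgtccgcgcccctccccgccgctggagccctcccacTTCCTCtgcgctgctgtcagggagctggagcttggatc
CAGGTG stood at -195 in the Itga3 window and at -121 in the Itga11 window, and its part in the array orders was not tested. It occurred in 8 of 36 member promoters (22.2%) and in 17.2% of all promoters. The letters say nothing about which factor was present in these cells.

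Members of high and even signal formed another group. Itgb1, the beta chain shared by the collagen, laminin and fibronectin receptors and known as CD29, had log2 signals of 12.21, 12.20 and 12.15 in the ASC-Ns, 12.48, 12.36 and 12.19 in the ASC-Ls and 12.36, 12.24 and 12.16 in the ASC-Is. The stages overlapped, and its change was 0.16 (-0.10 to 0.41) in ASC-Ls against ASC-Ns and 0.09 (-0.17 to 0.34) in ASC-Ls against ASC-Is. These intervals stay inside a 1.5-fold change in either direction. Itgav, the alpha chain of the vitronectin receptors, lay between 10.17 and 10.75, and the interval of its change in ASC-Ls against ASC-Ns (-0.12 to 0.56) also stayed inside this limit.

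Itga5, the fibronectin receptor chain, showed a wider spread. Its log2 signal was 10.89, 10.71 and 10.72 in the ASC-Ns, 11.35, 11.57 and 10.48 in the ASC-Ls and 11.10, 11.42 and 10.27 in the ASC-Is. Replicate 3 was the lowest array of both the ASC-Ls and the ASC-Is, and the ASC-N values lay within the range of each. In each same-numbered pair the ASC-L array was higher than the ASC-I array, with a change of 0.20. The replicate block over all 9 arrays gave an unadjusted p = 0.377 in limma. That block also covers the ASC-Ns, so it does not test the ASC-L and ASC-I pairs alone. Itgb5, which pairs with Itgav, showed the reverse, with 11.68, 11.55 and 11.52 on the third replicate of ASC-Ns, ASC-Ls and ASC-Is and 10.44 to 11.21 on the other arrays. The change in ASC-Ls against ASC-Ns was 0.36 (-0.40 to 1.12) for Itga5 and -0.17 (-0.92 to 0.58) for Itgb5.

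Cdh11 and Cdh2 are the cadherins of mesenchymal cells, and neither separated the stages. The log2 signal of Cdh11 was 11.41, 11.12 and 10.66 in the ASC-Ns, 10.79, 11.42 and 11.35 in the ASC-Ls and 11.03, 11.27 and 11.04 in the ASC-Is. Its change in ASC-Ls against ASC-Is was 0.07 (-0.43 to 0.58). N-cadherin (Cdh2) was even in the ASC-Ls (9.29, 9.26 and 9.23) and ASC-Is (9.23, 9.37 and 9.24) and spread over 8.96 to 9.77 in the ASC-Ns. Its changes were -0.10 (-0.52 to 0.31) in ASC-Ls against ASC-Ns and -0.02 (-0.44 to 0.39) in ASC-Ls against ASC-Is.

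**Figure D4:**
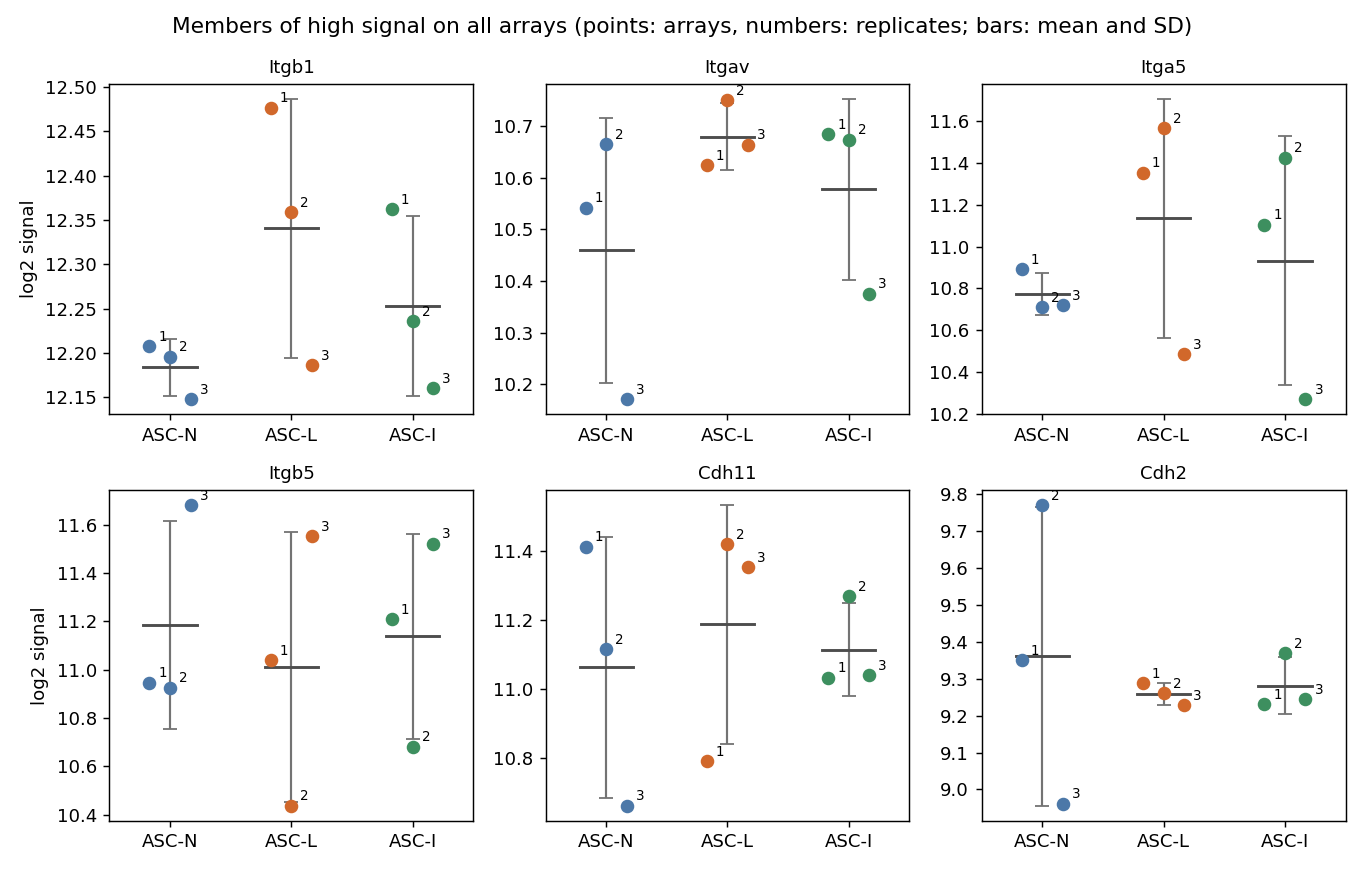
Log2 signal of 6 members of high signal by stage; points are arrays with their replicate number, and bars give the mean and SD of 3 arrays. The stages overlap in every panel, and the axes are narrow, with Itgb1 spanning 0.33 log2 units and Itga5 spanning 1.30.

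The remaining members that bind matrix or support leukocyte adhesion gave wide intervals. Itgb3, the beta chain of platelets and of the vitronectin receptor, was 7.64, 8.03 and 7.48 in the ASC-Ns, 7.24, 9.39 and 8.77 in the ASC-Ls and 6.94, 8.76 and 7.34 in the ASC-Is. ASC-L 2 and ASC-L 3 were the highest arrays, and the change in ASC-Ls against ASC-Is was 0.79 (-0.53 to 2.11). Itgb3 was higher in the ASC-L array of each same-numbered pair. With the replicate block, which also covers the ASC-Ns, the unadjusted p = 0.0502 in limma, against 0.211 without it. Itgb3 was called without ASC-L 1 (1.4) and without ASC-I 2 (1.32). Its change shrank to 0.32 without ASC-L 2 and to 0.42 without ASC-I 1 (unadjusted p = 0.59 and 0.528 in limma). Itga4, which binds VCAM-1 and fibronectin, was 5.77, 6.18 and 5.47 in the ASC-Ns, 7.0, 5.61 and 6.40 in the ASC-Ls and 5.90, 5.78 and 6.38 in the ASC-Is. Its change in ASC-Ls against ASC-Ns was 0.53 (-0.23 to 1.30), and it was called, at 0.90, once ASC-L 2 and ASC-I 2 were left out. Without ASC-L 1, its highest array, that change was 0.21 (unadjusted p = 0.516 in limma). Itga9, which binds tenascin-C, lay between 7.11 and 7.76 with a change of -0.21 (-0.62 to 0.21).

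Of the other cadherins, Cdh19, a cadherin of neural crest and Schwann cell precursors, varied widely within stages: 7.40, 3.95 and 5.78 in the ASC-Ns, 4.70, 6.31 and 4.93 in the ASC-Ls and 5.96, 4.60 and 6.78 in the ASC-Is. The mean of 5 Schwann cell markers was 5.65 to 6.35 over the 9 arrays, highest on ASC-L 2 and next on ASC-N 1 (6.31). Cdh13 (T-cadherin, an adiponectin receptor without a cytoplasmic tail) lay between 5.43 and 6.23. Cdh17, the cadherin of liver and intestine, had ASC-L values of 4.75, 4.17 and 4.71 and ASC-I values of 4.75, 5.02 and 5.19, with a change of -0.45 (unadjusted p = 0.036 in limma), which is under 1.5-fold. Groups of arrays did not overlap for 4 members between ASC-Ls and ASC-Is (Cdh17, Cdh20, Itgam and Itgb2), against 5.56% of all genes. They did not overlap for Cdh26 between ASC-Ls and ASC-Ns (8.59% of all genes) and for Cdh22 and Cdh23 between ASC-Is and ASC-Ns (6.54%). The 7 members among the lowest 25% of genes by mean signal can lie near the background of the array, and detection calls were not analysed here.

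**Figure D5:**
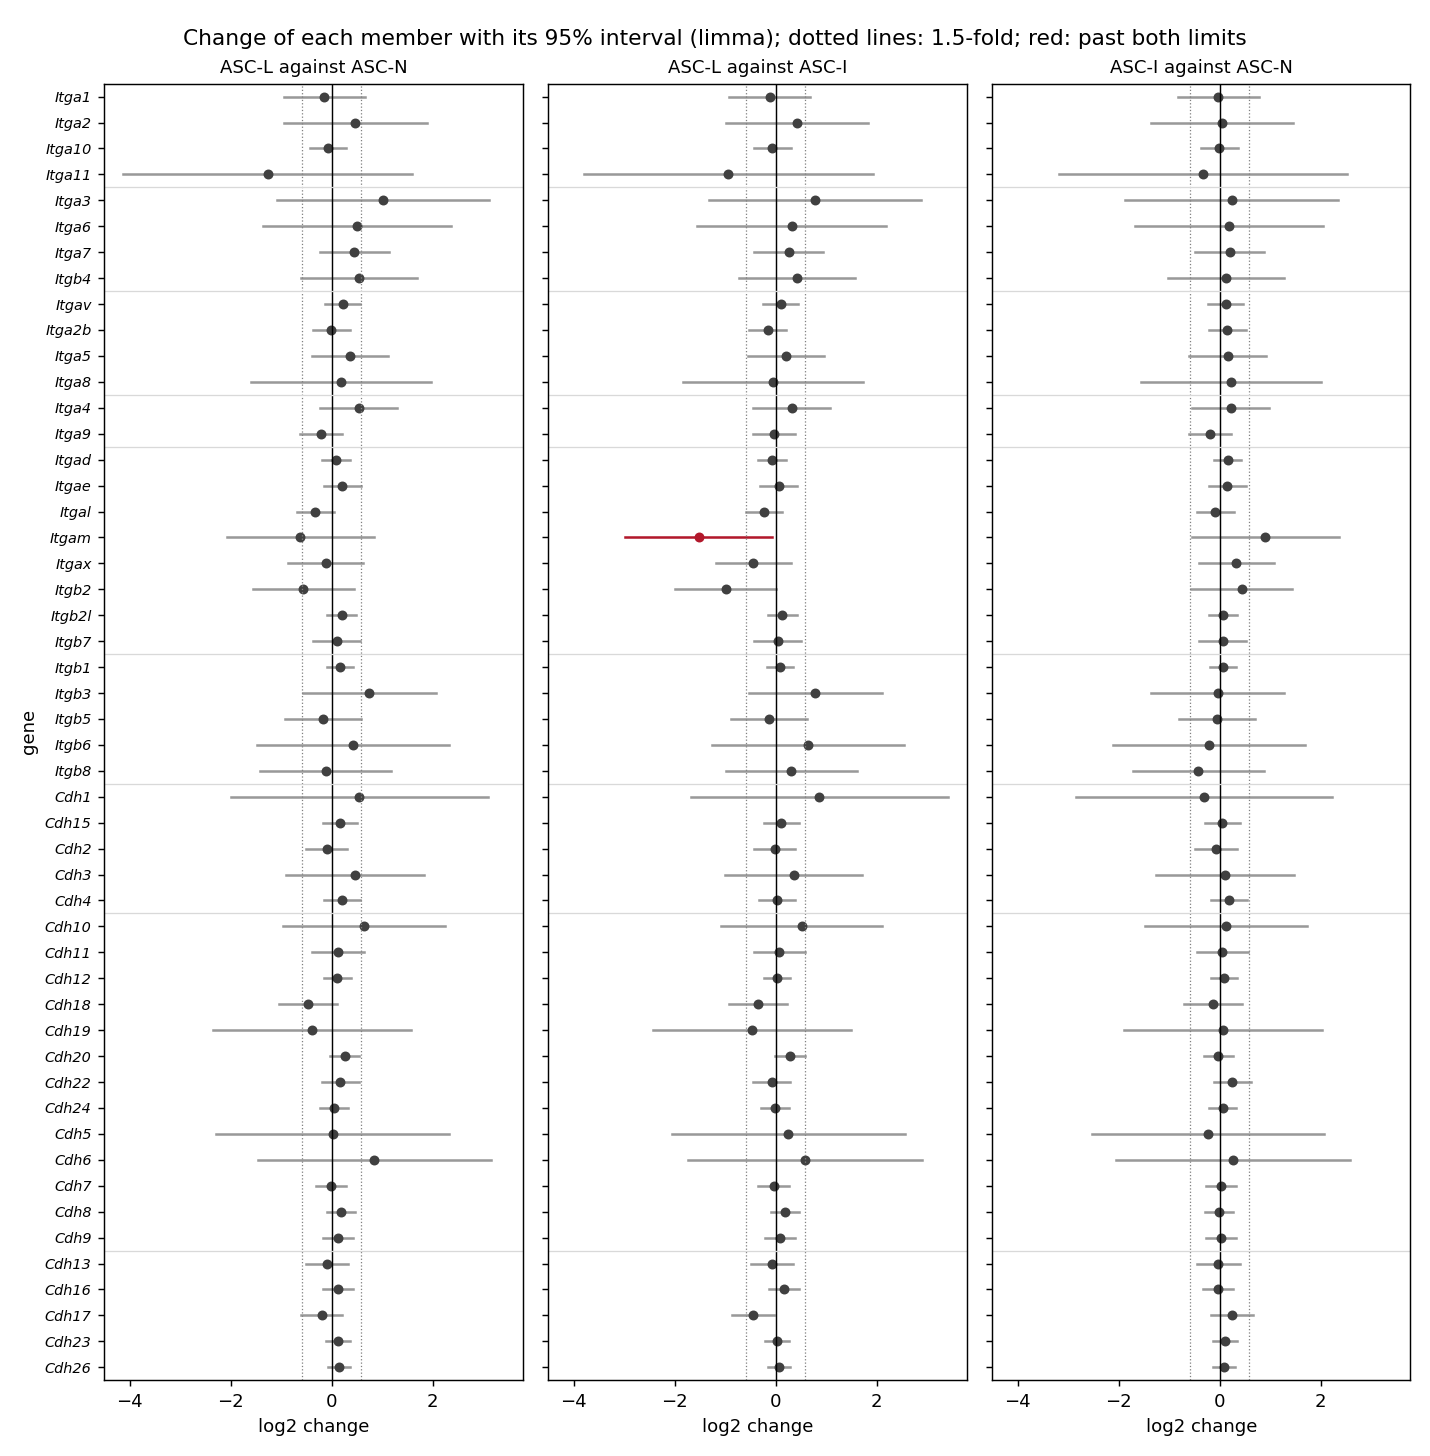
Log2 change of each member in the 3 comparisons with its 95% interval from limma; dotted lines mark a 1.5-fold change. Itgam in ASC-Ls against ASC-Is is the 1 member past both limits (red), and the widest intervals belong to the members that differ between arrays of 1 stage, such as Itga11 and Cdh1.

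The partners of these receptors were followed as lists. Of 29 measured integrin ligands, 1 rose in ASC-Ls against ASC-Ns and 0 were called in the other comparisons. This was Tnc (tenascin-C), a matrix protein bound by Itga8 and Itga9, which was 11.84, 11.67 and 11.48 in the ASC-Ns, 11.95, 12.81 and 12.34 in the ASC-Ls and 11.36, 12.48 and 11.59 in the ASC-Is. All ASC-L values lay above all ASC-N values, a change of 0.70 (unadjusted p = 0.0468 in limma). It was not called without ASC-L 2 (0.48, unadjusted p = 0.16), nor without ASC-N 1, ASC-N 2, ASC-N 3, ASC-L 3 or ASC-I 3, where the change was 0.61 to 0.79, nor without both ASC-L 2 and ASC-I 2 (0.48). It was called with the replicate block (unadjusted p = 0.0156 in limma), although not every same-numbered pair with ASC-Ns deviated together. In ASC-Ls against ASC-Is its change was 0.55 and not called, but it was called without ASC-I 2 (0.89), without ASC-L 1 (0.76) and without both ASC-L 2 and ASC-I 2 (0.67). Npnt (nephronectin) had a change of -1.03 in the same comparison (unadjusted p = 0.0579 in limma). Lamb3, a chain of the laminin of epithelial basement membrane, was also highest on the arrays of high epithelial marker signal, with 8.67 on ASC-L 2 and 7.02 on ASC-I 2, against 5.53 to 5.93 elsewhere.

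Of the 11 catenins and cadherin partners, 0 were called in any comparison. The member with the smallest p was Afdn (afadin), an actin-binding protein of adherens junctions, whose changes of 0.48 and 0.44 in ASC-Ls against ASC-Ns and ASC-Is were under 1.5-fold (unadjusted p = 0.0241 and 0.0324 in limma). Jup (plakoglobin) was 10.07 on ASC-L 2 and 8.63 on ASC-I 2, against 7.09 to 8.24 elsewhere, and Fermt1 (kindlin-1), the epithelial kindlin, was 9.02 and 7.07 there, against 4.38 to 5.66 elsewhere. The median change of the 30 integrin adaptors was -0.0013 in ASC-Ls against ASC-Ns and -0.0062 against ASC-Is, where the median of all genes was 0.0067 and 0.0078.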

How the data were processed

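Gene expression was measured on 9 Affymetrix Mouse Gene 1.0 ST arrays, 3 per stage. The authors deposited log2 values, 1 signal per probe set, made by robust multi-array average per the paper's methods and with GCRMA and limma per the submitters' notes (versions not given in the sources used here). The authors' removal of undetected and little varying genes was not applied.

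Probe sets with exactly 1 symbol in the array's annotation were averaged per gene. Left out were 6 probe sets naming an integrin or a numbered cadherin together with other genes. All 50 members were found by Entrez ID in the RefSeq table. Linear models with a mean per stage were fitted over 19930 genes with limma 3.58.1 in R 4.3.3 (residual degrees of freedom 6, prior 2.91), with Benjamini-Hochberg adjustment over all genes, and were tested on simulated data. Replicate numbers are shared between stages. Deviations from stage means correlated between same-numbered ASC-Ls and ASC-Is (r = 0.47, 0.73 and 0.46). They did not in every pair with ASC-Ns (r = -0.08, 0.40 and 0.45 for ASC-Ls, and 0.07, 0.43 and 0.50 for ASC-Is). The numbers were therefore read as pairs of ASC-Ls with ASC-Is only. The replicate block was nevertheless fitted over all 9 arrays, ASC-Ns included, so its p-values are not tests of those pairs alone.

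Members with a call or an F-test p under 0.05, the member of highest mean signal in each role class and a fixed set (Itgb1, Itgav, Itgam, Itgb2, Cdh11, Cdh1, Cdh2, Cdh3 and Cdh5) were named by rule, and the other members and array patterns after their values were seen. The members and lists were chosen with earlier results of these data known. Alternatives were array weights, a trended and robust prior, the arrays of the compared stages alone, quantile and cyclic loess normalization, filters on the lowest 25% of mean signal and on an SD under 0.05, each probe set alone, the replicate block, and leaving out arrays. The fits that left out arrays or used the block for Fermt3, Tnc, Itga3 and the macrophage markers were added after the data had been seen. The number of arrays limits the precision. Scan dates and slides were not used here.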

Additional observations from a re-analysis of the deposited data

How the results depend on the processing

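With 3 arrays per stage, the number of arrays limits every comparison. In ASC-Ls against ASC-Is, 1 member (Itgam) was called, 0 with an intensity trend and robust prior, and 2 (Itgam and Itgb2) with only the stages compared, array weights, quantile normalization, the replicate block or without ASC-L 2 and ASC-I 2. Leaving out 1 array in turn gave 0 to 3 members. For ASC-Ls against ASC-Ns, 0 members were called, 2 (Itga4 and Itgb2) with array weights, 3 (Itga4, Itgb6 and Itgb8) without ASC-L 2 and ASC-I 2, and 0 to 2 with 1 array left out in turn. Without ASC-L 2 and ASC-I 2, Itga4 rose (0.90), while Itgb6 (-0.74) and Itgb8 (-0.85) fell. The F-test over the 3 stages gave 0 members, 4 with array weights, 1 without ASC-L 2 and ASC-I 2, and 0 to 3 with 1 array left out. For ASC-Is against ASC-Ns, 0 members were called under each alternative run. The replicate block changed the count from 1 to 2 for ASC-Ls against ASC-Is and no other count of members. In every case the cause was not tested.

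Several changes that were not called had no stable sign. With array weights, the sign turned, with log2 changes of -0.45 (Cdh1), -0.12 (Cdh11), -0.20 (Cdh3), -1.30 (Cdh5), -0.41 (Itga6) for ASC-Ls against ASC-Ns, and of -0.16 (Cdh11), -0.31 (Cdh3), -0.40 (Itga6) for ASC-Is against ASC-Ns, and of -0.018 (Itga6) for ASC-Ls against ASC-Is. Without ASC-L 2 and ASC-I 2, the sign turned, with log2 changes of -0.81 (Cdh1), -0.12 (Cdh3), -0.93 (Cdh5), 0.051 (Itga1), -0.47 (Itga6) for ASC-Ls against ASC-Ns, and of -0.028 (Cdh11), -0.054 (Cdh3), 0.24 (Itga1), -0.087 (Itga5), -0.24 (Itga6) for ASC-Is against ASC-Ns, and of 0.021 (Cdh2), -0.069 (Cdh3), -0.0042 (Cdh5), -0.23 (Itga6) for ASC-Ls against ASC-Is. With cyclic loess, the sign turned, with log2 changes of 0.0027 (Cdh2) for ASC-Ls against ASC-Is. With quantile normalization, the sign turned, with log2 changes of -0.04 (Cdh5) for ASC-Ls against ASC-Ns. Leaving out 1 array in turn turned, for ASC-Ls against ASC-Ns, the change of Cdh1 (-0.81 to 1.33), Cdh11 (-0.076 to 0.32), Cdh13 (-0.28 to 0.12), Cdh2 (-0.30 to 0.10), Cdh3 (-0.12 to 1.08), Cdh5 (-0.93 to 0.95), Itga1 (-0.50 to 0.051), Itga6 (-0.47 to 1.06). Leaving out 1 array in turn turned, for ASC-Ls against ASC-Is, the change of Cdh1 (-0.50 to 1.64), Cdh11 (-0.042 to 0.27), Cdh2 (-0.048 to 0.022), Cdh3 (-0.23 to 0.98), Cdh5 (-0.70 to 0.94), Itga1 (-0.47 to 0.15), Itga5 (-0.13 to 0.53), Itga6 (-0.66 to 0.88), Itga9 (-0.21 to 0.11). Leaving out 1 array in turn turned, for ASC-Is against ASC-Ns, the change of Cdh1 (-1.09 to 0.11), Cdh11 (-0.15 to 0.23), Cdh13 (-0.21 to 0.19), Cdh2 (-0.28 to 0.13), Cdh3 (-0.35 to 0.42), Cdh5 (-0.93 to 0.70), Itga1 (-0.29 to 0.24), Itga5 (-0.087 to 0.49), Itga6 (-0.40 to 0.55), Itgav (-0.026 to 0.22), Itgb2 (-0.064 to 0.74). The filter on low signal left out Cdh7, Cdh8, Cdh9, Cdh12, Cdh17, Cdh20 and Itgae, so that they have no value under it.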
